A study of Homo sapiens with 5 samples.

Results

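The epidermal genes HRNR, FLG, FLG2 and EPPK1 carry their protein-coding repeats in a single very long exon, and they are described here by their trimethylation of histone H3 lysine 9 (H3K9me3) in HEK293T cells. They are 4 of the 20037 protein-coding RefSeq genes on chromosomes 1 to 22, X and Y. They were chosen by their coding repeats and by the share of the gene body under H3K9me3 peaks in the same lists, which is already known to be large at HRNR and EPPK1, so those shares are a description and carry no test. HEK293T is a human embryonic kidney line transformed by adenovirus and SV40 genes, and it is not an epidermal cell. The study knocked down KCNQ1OT1, a long non-coding RNA, and profiled H3K9me3 by chromatin immunoprecipitation and sequencing. The groups were HEK293T labelled KD, read here as the knockdown, HEK293T labelled EV, read as its empty vector control, and HEK293T labelled WT. The design text writes the target as KCNQ1OT1_K, and neither the suffix nor the knockdown method is explained in the sources used here. The labels list 1 H3K9me3 library for each of the 3 groups and an input library for EV and for WT. The deposited data are 3 lists of broad peaks: KD with 12650 peaks on chromosomes, EV with 24665, and a list with 14362 whose name carries no genotype. The last one was assigned to no group, and its values stand by themselves. With 1 library a group there is no replicate error and no test between conditions, and the read depth behind each list is unknown.

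H3K9me3 marks silenced chromatin: it is laid down by methyltransferases such as SETDB1 and SUV39H1 and is bound by heterochromatin protein 1. HRNR (hornerin), FLG (filaggrin) and FLG2 (filaggrin 2) are S100-fused type proteins, which join a calcium-binding S100 domain to a long array of repeats. They sit side by side in the epidermal differentiation complex, where they are expressed in the outermost living layers of the skin. Filaggrin bundles keratin filaments and is broken down into the moisturising factors of the stratum corneum, and its loss-of-function alleles cause ichthyosis vulgaris and predispose to atopic eczema. EPPK1 (epiplakin) is a plakin, a cytolinker of keratin filaments, made almost wholly of repeated plakin repeat domains. In the 3 S100-fused genes the repeats lie in the last exon, so they fill the part of the gene farthest from the promoter.

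The promoters of the 3 S100-fused genes lay outside the peaks of all 3 lists, and their sequences are shown because every peak described below ended short of them. A promoter outside the peaks is the usual case. Of the promoters at 22199 start sites of protein-coding genes, peaks overlapped 1.15% in KD, 1.69% in EV and 0.288% in the list without a genotype. RefSeq start sites were matched for 3 of the 4 genes, and EPPK1 was not matched. Each sequence runs 5′ to 3′ on the minus strand (GRCh38.p14), from 250 bases before to 50 after the start of transcription, at chr1:152224144-152224443 for HRNR, chr1:152325190-152325489 for FLG and chr1:152359957-152360256 for FLG2. Capitals mark matches to TATANA, a form of the TATA box, in the 50 bases before the start.
HRNR promoter: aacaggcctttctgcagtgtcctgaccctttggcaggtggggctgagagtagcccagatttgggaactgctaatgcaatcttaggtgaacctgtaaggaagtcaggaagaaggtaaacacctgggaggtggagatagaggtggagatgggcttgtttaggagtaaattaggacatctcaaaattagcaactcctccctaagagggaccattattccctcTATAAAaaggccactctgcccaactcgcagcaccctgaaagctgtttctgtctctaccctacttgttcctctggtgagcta
FLG promoter: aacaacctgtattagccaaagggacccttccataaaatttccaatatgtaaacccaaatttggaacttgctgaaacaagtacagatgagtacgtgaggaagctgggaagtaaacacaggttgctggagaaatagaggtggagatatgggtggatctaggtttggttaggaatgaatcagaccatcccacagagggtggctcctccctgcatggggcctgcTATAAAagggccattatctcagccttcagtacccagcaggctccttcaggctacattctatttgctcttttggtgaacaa
FLG2 promoter: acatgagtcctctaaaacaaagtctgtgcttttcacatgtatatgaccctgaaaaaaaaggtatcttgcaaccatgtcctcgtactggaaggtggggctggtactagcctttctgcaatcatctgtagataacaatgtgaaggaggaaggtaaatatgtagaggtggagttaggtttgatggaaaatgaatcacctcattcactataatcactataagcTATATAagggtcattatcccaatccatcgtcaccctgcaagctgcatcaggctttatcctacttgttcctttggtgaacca

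The 3 promoters each held a TATANA match close to the start and were poor in CpG. The TATANA match began 31 bases before the start in HRNR, 30 in FLG and 31 in FLG2, and it read TATAAA in the first pair and TATATA in FLG2. On the gene's own strand, 4.73% of the 22199 start sites of protein-coding genes held such a match in that stretch, overlapping matches allowed, and 15.2% held one anywhere in the 300 bases on either strand. A match is a description of the letters and not a tested site. The promoters held 1, 1 and 2 CpG dinucleotides in HRNR, FLG and FLG2, where the median start site of a protein-coding gene held 21. Their GC content was 48.7%, 45.7% and 41.0%, against a median of 62.3%. In global alignments, HRNR and FLG were identical in 60.8% of columns, FLG and FLG2 in 58.9%, and HRNR and FLG2 in 54.8%. The median identity of the HRNR promoter with the 2377 other start sites on chromosome 1 was 47.9%. The closest of those to both HRNR (61.5%) and FLG (57.7%) was the promoter of TCHH, which encodes trichohyalin, another S100-fused protein, of the hair follicle. The closest to FLG2 was that of FAM163A (54.8%), outside this family, and 2 of the 2377 were as close to HRNR as FLG2 was or closer.

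HRNR and EPPK1 kept a broad H3K9me3 peak of nearly the same extent in KD and EV, while FLG was covered to a smaller share in KD and FLG2 had a peak in EV alone. Peaks covered 54.4% of the HRNR body in KD and 59.2% in EV. For FLG these shares were 11.3% in KD and 43.8% in EV. FLG2 had no peak in KD and was covered to 34.4% in EV. EPPK1 was covered to 37.8% in KD and 37.0% in EV. Each gene held at most 1 peak per list, so every share is the extent of a single peak.

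**Figure D1:**
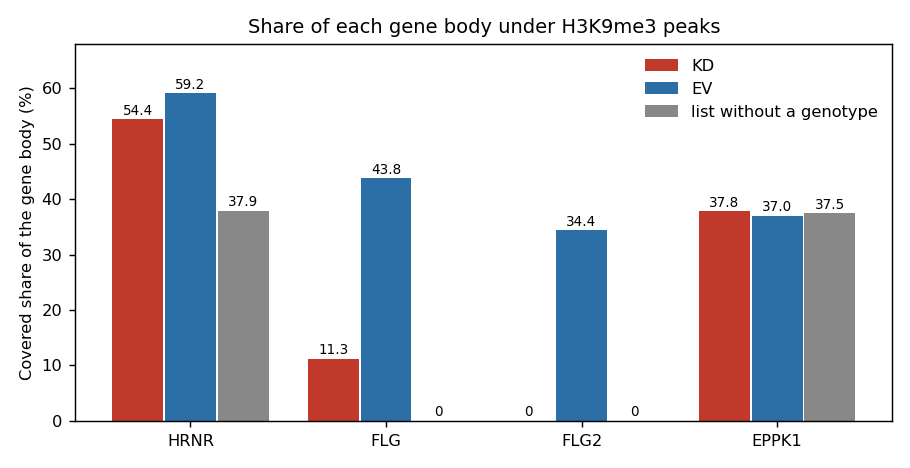
Share of each gene body under H3K9me3 peaks (vertical axis, percent) for the 4 genes in the KD list, the EV list and the list without a genotype, 1 library each and no error bars. EPPK1 stands between 37.0% and 37.8% in all 3, HRNR is highest in each list, and FLG2 has a bar in EV alone.

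Counted at a threshold of 10% of the gene body, 3 of the 4 genes passed in KD and all 4 in EV. Among all protein-coding genes 1.55% passed in KD and 2.75% in EV, and 1.15% passed in both. Since covered share took part in the choice of the genes, nothing is read from the excess of their count over these figures. A peak of any extent was present in 3 of the 4 in KD and in all 4 in EV, against 11.5% and 24.5% of protein-coding genes. At 25% of the body, HRNR and EPPK1 passed in both lists, as did 0.534% of protein-coding genes. The median share of the 4 genes was 24.5% in KD and 40.4% in EV, where the median protein-coding gene had no peak in either list. Ranked by covered share among protein-coding genes, HRNR stood 62nd in KD and 81st in EV, and EPPK1 95th and 134th.

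Summed over the 4 genes, peaks covered 17457 bp in KD and 29246 bp in EV, of 68336 bp of gene body. The KD/EV ratio was 0.597, against 0.303 summed over all protein-coding genes and 0.408 over all peaks on chromosomes. Covered share took part in the choice of the genes, so nothing is read from the gap between these ratios. Single genes differed widely around the ratio of 0.597. The ratio was 0.919 for HRNR, 0.257 for FLG and 1.02 for EPPK1, while FLG2 had no KD peak. A larger share in EV than in KD was the rule across the genome: it held for 93.4% of the 4910 protein-coding genes with an EV peak, and for 3 of these 4. With both lists limited to a fold enrichment of at least 3, FLG and FLG2 lost their peaks, 2 genes passed 10% in KD and 2 in EV, and the ratio was 0.973.

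The HRNR gene (gene ID 388697) spans chr1:152212076-152224193 on GRCh38, 12118 bp on the minus strand. Its KD peak ran from 152213659 to 152220248, 6590 bp wide, and its EV peak from 152213596 to 152220764, 7169 bp wide. The KD peak lay wholly inside the EV peak and made up 91.9% of it. The edges toward the 3′ end differed by 63 bp between KD and EV, and those toward the promoter by 516 bp. Within its own list the KD peak had a fold enrichment over the caller's background of 5.598 and a −log10 p of 51.3. The EV peak had a fold of 5.36 and a −log10 p of 99.3 in its list. These values are the authors', and folds of different lists are not compared because their scaling is not known. By −log10 p it ranked 105th of the 12650 KD peaks and 166th of the 24665 EV peaks, so it was among the strongest of both. By width it was within the top 2.38% of KD and 4.31% of EV peaks.

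EPPK1 (gene ID 83481) spans chr8:143857324-143879194, 21871 bp, and had the most even peak of the 4 genes. The KD peak ran from 143858200 to 143866470, 8271 bp, and the EV peak from 143858267 to 143866367, 8101 bp. The EV peak lay wholly inside the KD peak, and 97.9% of the KD peak was shared. The edges differed between KD and EV by 67 bp at the low-coordinate side and by 103 bp at the other. The peak began within 1 kb of the gene's low-coordinate end and covered no base of the body beyond its midpoint in either list. In KD it had a fold of 5.63 and a −log10 p of 38.4, and in EV a fold of 5.01 and a −log10 p of 76.5. It ranked 201st by −log10 p in KD and 272nd in EV, and 173rd and 876th by width.

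FLG (gene ID 2312), at chr1:152302165-152325239, is the longest of the 4 with 23075 bp, and of the peaks present in both lists its peak differed most in extent. The KD peak covered 2596 bp, from 152304084 to 152306679. The EV peak covered 10099 bp, from 152303750 to 152313848, and contained the whole KD peak, which made up 25.7% of it. The edges toward the 3′ end lay 334 bp apart, and those toward the promoter 7169 bp apart. Neither peak was tall: the fold was 2.79 in KD, at or below that of 94.8% of all KD peaks, and 2.88 in EV, and the −log10 p was 6.32 and 10.8. By width the EV peak was in the top 2.44% of its list. The FLG peak thus combined large width with low enrichment in EV, unlike the tall and wide peaks of HRNR and EPPK1.

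FLG2 (gene ID 388698), at chr1:152348735-152360006, 11272 bp long, had a peak in EV only. It ran from 152352069 to 152355945, 3877 bp, with a fold of 2.80 and a −log10 p of 7.53, the weakest peak of the 4 genes in that list. Genes with an EV peak and no KD peak were common: they made up 14.7% of all protein-coding genes and 59.8% of those with an EV peak. EV peaks of like strength were also often missing from KD. Between a −log10 p of 7 and 8 the EV list held 1245 peaks, and 802 of them were overlapped in KD, 64.4% (exact Clopper-Pearson 95% interval 61.7 to 67.1, for counting error over peaks only). These peaks were mostly narrower than that of FLG2, with a median width of 1433 bp. Of the 224 that were at least 5 kb wide, 219 were overlapped in KD. The FLG2 peak lies between these widths, and peaks of its own width were not counted apart.

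The same reading by strength was made for the other genes, with ranges chosen after their values were seen. All 274 EV peaks with a −log10 p from 60 to 120, the range of HRNR and EPPK1, were overlapped in KD, with a median of 90.1% of their bases under KD peaks. HRNR had 91.9% of its EV peak under KD and EPPK1 100%. In the range of FLG, a −log10 p from 10 to 12 and a width of at least 5 kb, all 176 EV peaks were overlapped, with a median of 59.98% of their bases under KD. FLG had 25.7%, below that median. Over the 4 genes, 3 of 3 KD peaks were overlapped by an EV peak, beside 87.7% of all KD peaks. In the other direction 3 of 4 EV peaks were overlapped, beside 37.7% of all EV peaks. Covered share in these lists took part in the choice of the genes, so nothing is read from these differences.

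**Figure D2:**
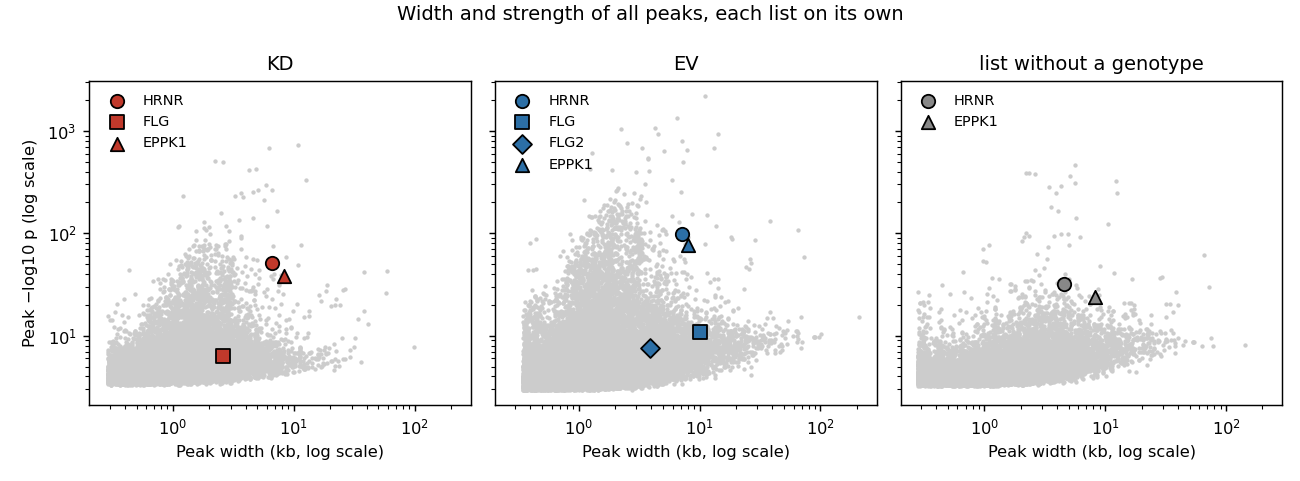
Width (horizontal axis, kb, log scale) and −log10 p (vertical axis, log scale) of every peak on chromosomes in KD, EV and the list without a genotype, with the peaks of the 4 genes as large symbols. HRNR and EPPK1 lie at the upper right of each cloud, and FLG and FLG2 lie below them, with −log10 p of 6.32 for FLG in KD and of 10.8 and 7.53 for FLG and FLG2 in EV.

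All peaks of the 3 S100-fused genes started inside the 3′ part of the gene and stopped short of the promoter. The gap between the start of transcription and the nearest edge of the peak was 3945 bp in KD and 3429 bp in EV for HRNR. For FLG it was 18560 bp in KD and 11391 bp in EV, and for FLG2 4061 bp in EV. The covered bases therefore lay mostly on the far side of the gene's midpoint, seen from the start. That side held 67.9% of the covered bases of HRNR in KD and 63.3% in EV, 100% and 98.6% for FLG, and 59.4% in EV for FLG2. The median gene of at least 5 kb with 10% or more covered and a matched start site had 42.5% there in KD (71 genes) and 45.9% in EV (273 genes). More than 50% of the covered bases lay there in 32 of these genes (45.1%) in KD and 128 (46.9%) in EV. In the list without a genotype it was 30 of 53 genes (56.6%). A peak mostly on the far side was therefore common among covered genes. Of the start sites of all genes covered to at least 10%, 81 of 251 (32.3%) were overlapped by a peak in KD and 130 of 522 (24.9%) in EV. Most were thus not overlapped, and none of these 3 was. FLG2, without a KD peak, is not among the genes counted in KD. The gene table used here has no exons, so peak edges were not set against exon borders. Reads from near-identical repeats can match several places in the same gene, and no source used here states how such reads were treated, which makes values within the repeats uncertain. The part of such reads in these peaks was not tested.

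**Figure D3:**
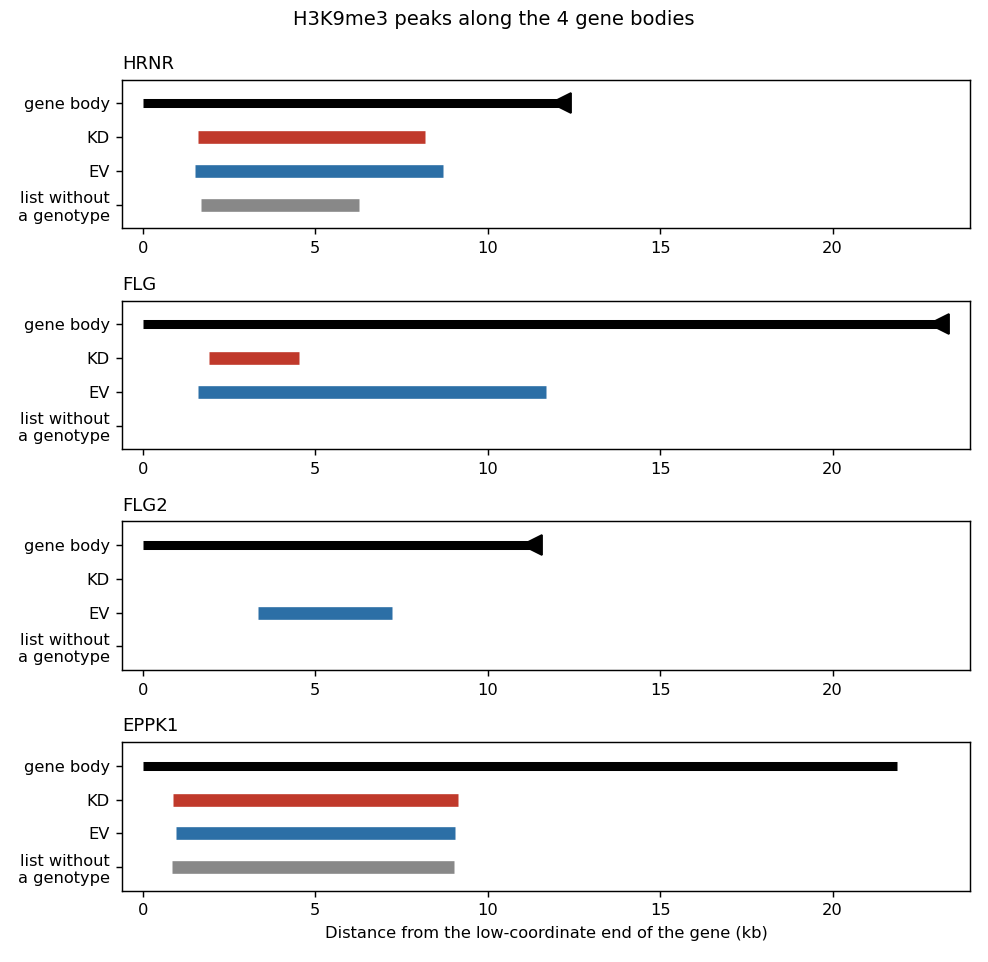
Peaks along each gene body, plotted as distance from the low-coordinate end of the gene (kb), with KD above EV and the list without a genotype below. Arrowheads mark the start of transcription where it was matched. The EPPK1 peak has its edges within 125 bp across the 3 lists, the HRNR peak is shorter in the list without a genotype, and the FLG peak is 2596 bp wide in KD and 10099 bp in EV.

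The list without a genotype held a peak at HRNR and at EPPK1 and none at FLG or FLG2. The HRNR peak ran from 152213750 to 152218341 and covered 37.9% of the gene, and its bases all lay under both the KD and the EV peak. The EPPK1 peak ran from 143858153 to 143866345 and covered 37.5%, with edges within 125 bp of those in KD and within 114 bp of those in EV. Its 2 genes at 10% or more compare with 0.774% of protein-coding genes in that list, and 7.26% had any peak. Genes at 10% or more in all 3 lists, as HRNR and EPPK1 were, made up 0.359% of protein-coding genes.

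The sequence around the genes carried little H3K9me3 in comparison with the gene bodies. Flanks of 200 kb on each side were measured with the bodies of the 4 genes left out, and flanks were not used to choose the genes. The cover of the bodies took part in that choice, so nothing is read from the gap between bodies and flanks. Over 901 kb of flank, peaks covered 0.537% in KD and 1.001% in EV. The median protein-coding gene had 0.127% of its flanks covered in KD and 0.672% in EV. Values for other genes were taken gene by gene with no gene body left out of the flanks. They are thus not the same measure as the pooled flanks of the 4 genes. Among the 230 protein-coding genes covered to at least 10% in both lists the medians were 0.617% in KD and 1.45% in EV. The quartiles were 0.145% and 2.17% in KD and 0.623% and 3.82% in EV. Taken gene by gene, still without the bodies of the 4 genes, the KD flanks ran from 0.259% at HRNR to 0.722% at FLG. In EV they were 0.281% at HRNR, 0.501% at FLG2, 0.758% at FLG and 1.54% at EPPK1. HRNR, FLG and FLG2 lie in each other's flanks, and leaving out their covered bodies lowers these shares. The flanks of these 3 genes are therefore not placed against the quartiles. EPPK1 has no other of the 4 genes in its flanks. Its share lay inside the quartiles in KD (0.531%) and in EV (1.54%). With pooled flanks of 50 kb the order of KD and EV turned, with 0.371% in KD and 0.321% in EV. The list without a genotype had no peak in the flanks.

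**Figure D4:**
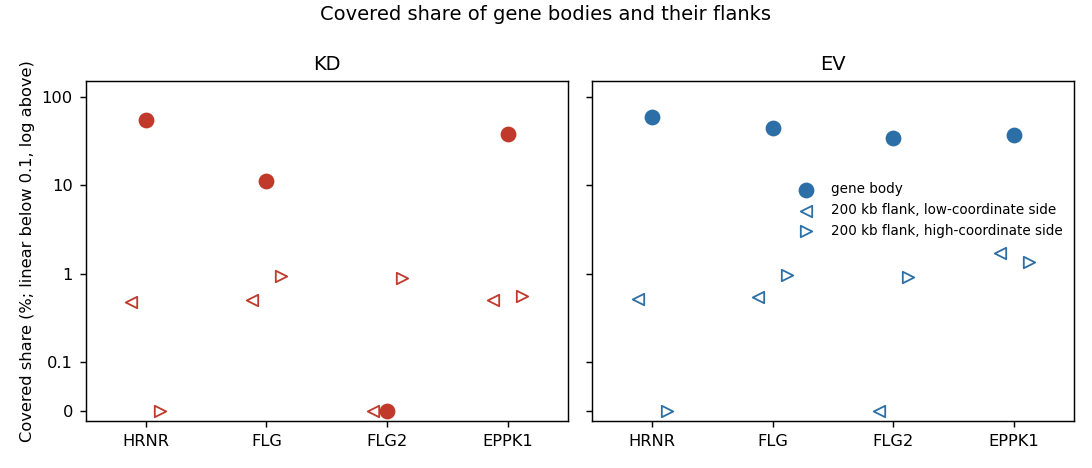
Covered share (vertical axis, percent, linear below 0.1 and log above) of each gene body (filled circles) and of its 200 kb flank on the low-coordinate and high-coordinate sides (open triangles), KD left and EV right. Every flank lies at 1.72% or below, while gene bodies with a peak lie at 11.3% or above.

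At HRNR, FLG and FLG2 the same 2 flanking peaks were present in KD and EV. One lay in TCHH, 103 kb from HRNR, at 152108231 to 152109177 in KD and 152108074 to 152109101 in EV. TCHH was covered to 10.4% in KD and 11.3% in EV, and its peak, like those of its neighbours, lay in the 3′ part of a minus-strand gene, 6267 bp from the gene's high-coordinate end in KD and 6343 bp in EV. The other lay between genes, 129.6 kb beyond FLG2, at 152489582 to 152491353 in KD and 152489560 to 152491385 in EV. It was 1772 bp wide in KD and 1826 bp in EV, with a fold of 9.77 in KD and 10.5 in EV, above every peak within the 4 genes in the same list. Its neighbours were CRNN, which encodes cornulin, and LCE5A, a late cornified envelope gene, 75.3 and 19.4 kb away. No peak of either list lay between HRNR and FLG or between FLG and FLG2. Of the 7 other protein-coding genes in this window, TCHH was the 1 with a peak, in KD as in EV. The long non-coding gene CCDST overlaps all 3 members, and its cover of 5.18% in KD and 11.9% in EV came from their peaks.

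Around EPPK1 the flanking peaks had lower −log10 p than those around the S100-fused genes, both in KD and in EV. KD had 3, with −log10 p between 3.76 and 4.34, and EV had 7, between 3.12 and 6.38. Peaks in IQANK1, 79.7 kb away in KD and 79.4 kb in EV, and in the interval between EPPK1 and PLEC were the 2 present in both lists. PLEC, which encodes the plakin plectin and lies next to EPPK1, had a KD peak of 538 bp and none in EV. CCDC166 (64.9% covered), SPATC1 (1.94%) and EXOSC4 (6.39%), an exosome subunit gene, had peaks in EV and none in KD. Of the 14 other protein-coding genes in this window, 2 had a peak in KD and 4 in EV.

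Genes related to these 4 were counted from lists written with earlier results of these data known. The shares of all protein-coding genes are 1.55% in KD and 2.75% in EV at 10% of the body, and 11.5% and 24.5% with any peak, so a gene without a peak is the usual case. Of the 7 S100-fused genes, 3 were covered to at least 10% in KD (HRNR, FLG and TCHH) and 4 in EV (the same with FLG2), and RPTN, CRNN and TCHHL1 had no peak in either list. The median of these 7 was 0% in KD and 11.3% in EV. Of 39 cornified envelope genes of the same complex, none had a peak in KD and 1 had in EV, IVL, which encodes involucrin, a repeat-bearing envelope precursor, with 28.1% of its body covered. Of 16 S100A genes of the region, none reached 10%, and peaks touched 0 of them in KD and 1 in EV. Of 33 epidermal keratin, desmosome and differentiation genes, 0 had a peak in KD and 3 in EV, where KLK5, a skin protease, reached 14.3%.

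Among the 8 plakins EPPK1 alone passed 10%, in KD and in EV. A smaller peak was present in PLEC, MACF1 and DST in KD and in MACF1 and DST in EV. Their shares were at most 0.873% in KD and 2.17% in EV, beside 37.8% and 37.0% for EPPK1. The other members, DSP, PPL, EVPL and EVPLL, had none in either list.

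Some of the mucin genes, which encode glycoproteins with long tandem repeats, also held broad peaks inside the gene body, and others had none. Of 50 other genes with repeated or very long coding sequence, in a list written by hand, 3 reached 10% in KD and 6 in EV, and 14 in KD and 19 in EV had any peak. Those at 10% make up 6% of the list in KD and 12% in EV, beside 1.55% and 2.75% of all protein-coding genes, and the median is 0% in both. The list was written with earlier results known, and nothing is read from the difference. Of its 15 mucin genes, a grouping made after the values were seen, 3 reached 10% in KD and 5 in EV, and 4 (MUC1, MUC6, MUC7 and MUC21) had no peak in any list. MUC5B, a gel-forming mucin of the airways, was covered to 23.2% in KD and 21.8% in EV by a single peak of 9071 bp in KD and 8513 bp in EV. MUC12 had 18.2% in KD and 19.3% in EV, and MUC5AC 11.6% and 16.7%. MUC17, a membrane mucin of the gut, had 0.921% in KD and 21.4% in EV, and so differed between the lists as FLG did.

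**Figure D5:**
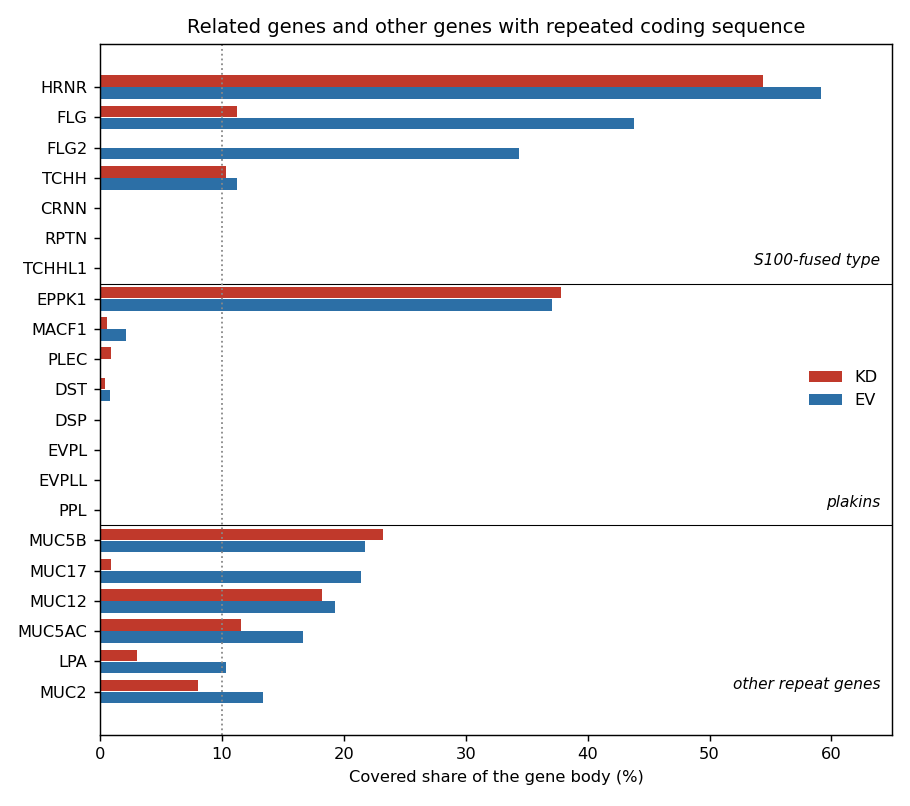
Covered share of the gene body (horizontal axis, percent) in KD (upper bar) and EV (lower bar) for the S100-fused genes, the plakins, and the other listed repeat genes that reached 10% in any list. The dotted line marks 10%. HRNR, EPPK1, MUC5B and MUC12 have bars of like length in KD and EV, and FLG and MUC17 have much shorter ones in KD.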

How the data were processed

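H3K9me3 was measured by ChIP-seq in crosslinked, sonicated HEK293T chromatin. Reads were aligned with Bowtie2 and peaks called with MACS2 on GRCh38, per the submitters' processing notes. Options, controls, filters, pooling and versions are not stated. Each peak's fold enrichment (a ratio over the caller's background), −log10 p and −log10 q are values the authors deposited. No list holds a −log10 q below 1.008, and depth is unknown. The EV and KD lists were matched to groups by name.

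Peaks on chromosomes 1 to 22, X and Y were set against RefSeq gene bodies (GRCh38.p14), with coordinates counted from 1 and overlap of at least 1 bp. Promoter sequences and strands are RefSeq's (GRCh38.p14). Covered bases were computed with numpy 2.4.6 and pandas 2.3.3 in Python 3.11.15 and tested on simulated data against bedtools 2.31.1, intervals with scipy 1.17.1, alignments with Biopython 1.88 (match 1, mismatch -1, gap opening -2, extension -0.5), and plots with matplotlib 3.10.9. Named are the 4 genes, genes with a peak within 200 kb, and at most 4 genes of each list at 10% or more, by the largest share in any of the 3 lists. S100-fused genes and mucins without a peak, the smaller plakins and LPA are named beside them, chosen after their values were seen. A member of the hand-written list is not reported here. The members, gene lists, rule and alternatives (stricter −log10 q or fold, merging, equal peak numbers, other flanks, thresholds and overlap) were chosen with earlier results of these data known.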

Additional observations from a re-analysis of the deposited data

Results flagged for a closer look

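The list without a genotype belongs to no group and enters no comparison between conditions. It held a peak at 2 of the 4 genes: it covered 37.9% of HRNR and 37.5% of EPPK1. The groups' input libraries have no peak list here to set beside these values.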

How the results depend on the processing

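Covered length of the 4 genes was smaller in KD than in EV under each alternative setting of the peak lists. With a fold enrichment of at least 3 in both lists, the genes at 10% numbered 2 in EV, their KD/EV ratio was 0.973, and the flanks were covered to 0.477% in KD and 0.760% in EV. The FLG and FLG2 peaks lie under that fold, which accounts for the count and the ratio. A −log10 q of at least 2 gave flanks of 0.302% in KD and 0.760% in EV, and equal peak numbers (12650 each) 0.760% in EV, through the loss of weak peaks near EPPK1. Flanks of 50 kb gave 0.371% in KD and 0.321% in EV, so that KD stood above EV there, and flanks of 500 kb gave 0.266% and 0.715%. Of 32 covered shares of single genes under these peak settings, 29 were unchanged. Each share is the extent of a single peak that a setting kept or dropped whole, so this count gives no error of a peak's extent. The 3 that moved were the peaks lost at FLG in both lists and at FLG2 in EV. No paired analysis was possible because each group has 1 library. Unknown depth limits the reading of any peak missing from a list.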

Other observations

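LPA, which encodes apolipoprotein(a) with its tandem kringle repeats, was covered to 3.06% in KD and 10.4% in EV, and to 15.9% in the list without a genotype. In that list MUC5B was covered to 19.6% and MUC12 to 9.21%, while MUC17, like FLG and FLG2, had no peak. DST, a plakin whose covered share was below 1% in all 3 lists, held a peak 1896 bp wide in KD, 2199 bp in EV and 1892 bp in the list without a genotype, with a −log10 p of 50.1 in KD, 154.5 in EV and 7.25 in the list without a genotype.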
